A study of Mus musculus with 40 samples.

Results

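The claudins described here were 10 genes, Cldn1, Cldn2, Cldn3, Cldn4, Cldn5, Cldn7, Cldn8, Cldn12, Cldn15 and Cldn23, chosen by symbol as the members of the family to be followed in colon epithelium. They were 10 of the 35 claudin genes, and of the 45706 genes, in expression tables of 40 RNA sequencing libraries, with 4 libraries in each of 10 groups of sorted mouse cells. Tumor epithelial and tumor stromal cells, tumor neutrophils, tumor monocytes, and blood neutrophils and blood monocytes of tumor-bearing mice came from mice of strain C57Bl6/Sv129 that carried Cdx2CreERT2 with Apc fl/fl and received 1 intraperitoneal injection of 25 mg/kg tamoxifen at 8 to 10 weeks of age. Healthy colon epithelial cells, healthy colon stromal cells, and blood neutrophils and blood monocytes of healthy mice came from C57Bl6 mice with neither transgene nor tamoxifen, so tumor, strain, transgene and drug cannot be told apart in any comparison between tumor-bearing and healthy mice. The Cdx2 promoter restricts the inducible Cre, and with it the loss of Apc, mainly to colon epithelium. Epithelial cells had been sorted as EpCAM-positive and CD45-negative, stromal cells as negative for both, and each blood library held cells pooled from several animals where its label names more than 1.

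Claudins are membrane proteins that join neighboring epithelial or endothelial cells at the tight junction and set which ions pass between cells. Some, such as Cldn2 and Cldn15, form channels for small cations and water, whereas others, such as Cldn1, Cldn3, Cldn4, Cldn5 and Cldn8, are mainly known to seal the space between cells. In the colon the mixture of claudins differs between the crypt and the surface, and most family members are held in place by scaffold proteins that bind their tails, such as Tjp1.

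Counts on genes totaled 10717873 to 38002939 per library. Mitochondrial genes took 48.6% to 83.9% of the counts in healthy epithelial libraries, with the highest share in replicate 4, and 46.3% to 60.5% in tumor epithelial libraries. RPKM values of most genes were low in that library, and levels of its group are given for all 4 libraries. Epcam, the surface marker of the sort, was at 55.9 ± 32.3 RPKM (SD, n = 4) in healthy and 50.9 ± 20.7 RPKM in tumor epithelial cells. The targeted gene itself was counted over its whole length, so its total does not show the deletion, and Apc was higher in tumor epithelial cells by 1.13 on the log2 scale (SE 0.31, edgeR adjusted p = 0.0228). Among 8 Wnt target genes, 7 had higher RPKM in every tumor epithelial library than in any healthy one, for example Axin2 at 11.9 ± 1.06 against 1.44 ± 0.865 RPKM. Beside this, 27.8% of all genes tested did not overlap in either direction, counted on values normalized for library size. Fibroblast, endothelial and leukocyte lists stood at no more than 0.271%, 0.825% and 2.81% of the level in the group they mark in any epithelial library. Tumor stromal replicates 1 and 2 stood apart from replicates 3 and 4: their epithelial marker list was at 64.8% and 37.6% of the epithelial level, against 17.7% and 10.9%, and their endothelial list at 1.25% and 1.28% of the healthy stromal level, against 110% and 93.4%. In all 4 tumor stromal libraries the fibroblast list was low, at 0.961% to 4.12% of the healthy stromal level, against 57.4% to 197% in healthy stromal libraries. Their leukocyte list was at 8.26% to 32.3% of the tumor neutrophil level, against 0.948% to 7.27% in healthy stromal libraries. Each test that includes tumor stromal cells is given with and without tumor stromal replicates 1 and 2.

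Claudin composition differed between the epithelial groups. Between genes, levels were compared as RPKM, read counts that the authors scaled by gene length and by library. In healthy epithelial cells Cldn2 was the highest claudin, at 16.4 ± 10.2 RPKM (SD, n = 4), followed by Cldn3 at 10.5 ± 5.68, Cldn23 at 7.53 ± 4.87, Cldn7 at 6.65 ± 4.23 and Cldn15 at 5.15 ± 3.27 RPKM. The spreads of these neighbors overlapped, and much of the SD came from replicate 4, which was the lowest in each. In Cldn23, replicate 1, at 13.9 RPKM, lay farther from the mean than replicate 4, at 2.26 RPKM. In tumor epithelial cells Cldn4 led at 47.0 ± 16.2 RPKM, followed by Cldn3 at 13.1 ± 7.85, Cldn2 at 7.37 ± 1.94, Cldn23 at 5.70 ± 2.02 and Cldn7 at 5.68 ± 3.7 RPKM, and the lowest Cldn4 value there, 32.9 RPKM, was above the highest of any other member, 24.4 RPKM for Cldn3.

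As a share of the summed RPKM of the 10 members, which does not depend on the depth of a library, Cldn4 took 6.35%, 0.743%, 1.59% and 4.88% in the 4 healthy epithelial libraries and 61.9%, 61.0%, 53.8% and 52.7% in the 4 tumor epithelial libraries. The groups did not overlap, and Cldn4 alone made up most of the claudin RPKM of each tumor epithelial library. Cldn2 took 30.3%, 34.9%, 34.1% and 15.5% in healthy and 8.19%, 9.81%, 7.61% and 11.3% in tumor libraries, and Cldn15 took 6.01% to 11.9% in healthy and 0.239% to 0.886% in tumor libraries, again without overlap. The share of Cldn3 lay in between, at 18.8% to 25.2% in healthy and 12.2% to 19.0% in tumor libraries, with an overlap. Since shares add up to a fixed total, a rise of Cldn4 lowers the share of every other member, and these values are a description without a test.

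**Figure D1:**
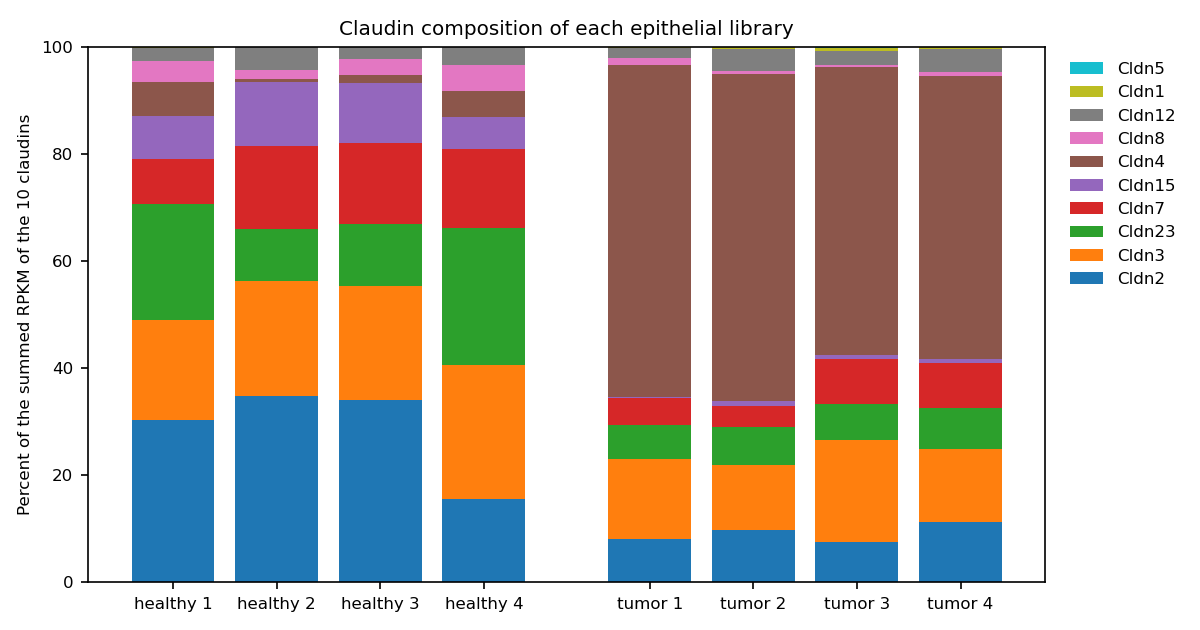
Stacked bars give the percent of the summed RPKM of the 10 claudins (vertical axis) in each of the 8 epithelial libraries (horizontal axis, 4 healthy and 4 tumor), 1 color per gene. Cldn4 takes 0.743% to 6.35% of a healthy library and 52.7% to 61.9% of a tumor library, while Cldn2 takes 15.5% to 34.9% and 7.61% to 11.3%.

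Whether claudins changed in the tumor epithelium was tested in the 4 tumor against the 4 healthy epithelial libraries with the quasi-likelihood test of edgeR, and a call needed both an adjusted p under 0.05 and a log2 fold change of more than 1.5 in size. Of the 10 members, 9 had enough counts to be tested and 4 were called, 1 higher (Cldn4) and 3 lower (Cldn2, Cldn8 and Cldn15) in tumor epithelial cells. Of all 16085 genes tested, 15.4% were called, 7.52% higher and 7.88% lower. Over the 9 members the log2 fold changes had a median of -0.75, beside -0.01 over all genes tested. The split of calls over all genes was 1209 higher and 1267 lower in this test and 1545 higher and 540 lower in a limma fit of log2(RPKM + 0.1), in which the median of all genes moved to 0.58 (0.19 with a pseudocount of 1), so log2 RPKM results are read relative to those shifts. In bulk RNA of sorted cells, fewer cells of a type and less RNA per cell cannot be told apart.

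Among the channel-forming claudins, Cldn15, a sodium channel of intestinal tight junctions, had 35.8, 34.5, 37.7 and 13.3 normalized CPM (counts scaled by library size with the trimmed mean of M values) in the 4 healthy and 1.03, 2.65, 3.87 and 2.72 in the 4 tumor epithelial libraries. Every tumor library was below every healthy one, although replicate 4 of the healthy cells was well below the other 3. The log2 fold change of Cldn15 was -3.55 (SE 0.46, edgeR adjusted p = 0.000406), or 11.7-fold lower in tumor epithelial cells. Cldn2, which forms cation and water channels and is known from leaky epithelia and the crypt, had 208, 159, 182 and 53.7 normalized CPM in healthy and 55.4, 45.8, 54.7 and 56.1 in tumor libraries. The 4 tumor libraries lay close together, 3 healthy libraries were far above them, and healthy replicate 4 was at the tumor level. The log2 fold change of Cldn2 was -1.51 (SE 0.34, edgeR adjusted p = 0.0100), just past the fold threshold. It was between -1.53 and -0.59 over 10 other settings, none of which kept the call, through the fold threshold alone in 7 of them and with an adjusted p of 0.394 to 0.593 in the fit of all 40 libraries and both fits of log2 RPKM. The call was also lost in 4 of the 8 fits without 1 library, in which the adjusted p was at most 0.0356.

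Among the sealing claudins, Cldn4, a barrier claudin and a receptor for an enterotoxin of Clostridium perfringens, had 23.8, 1.84, 4.64 and 9.25 normalized CPM in healthy and 228, 155, 211 and 143 in tumor epithelial libraries. The lowest tumor library was well above the highest healthy one, and the healthy libraries differed widely among themselves. Cldn4 was 18.8-fold higher in tumor epithelial cells (log2 fold change 4.23, SE 0.67, edgeR adjusted p = 0.00131), and every alternative and every fit without 1 library kept the call. Cldn8, a sealing claudin of the distal colon and kidney tubule, had 18.6, 5.36, 11.2 and 11.9 normalized CPM in healthy and 6.29, 1.62, 2.06 and 2.89 in tumor libraries. Only healthy replicate 2 and tumor replicate 1 overlapped. The log2 fold change of Cldn8 was -1.87 (SE 0.51, edgeR adjusted p = 0.0235), and the call was lost in the fit of all 40 libraries and both fits of log2 RPKM (adjusted p of 0.215 to 0.278), without healthy replicate 1 (adjusted p = 0.0592) and without tumor replicate 2 (0.0605), 3 (0.0702) or 4 (0.0709).

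Cldn1, the claudin best known for the barrier of the skin, was near the limit of detection in healthy epithelium, at 1.05, 0.0317, 0 and 0.240 normalized CPM, and had 1.30, 1.41, 4.08 and 2.06 in tumor libraries. The groups did not overlap, but healthy replicate 1 was close to the lowest tumor library. The log2 fold change of Cldn1, 2.78 (SE 1.09), missed the threshold with edgeR (adjusted p = 0.0980) and passed it with limma-voom (0.0123), with DESeq2 (0.0338), in the fit of log2(RPKM + 0.1) (0.000912) and without healthy replicate 1 (0.00836). Its adjusted p ranged from 0.000912 to 0.127 over 9 other settings and from 0.00836 to 0.231 over the 8 fits without 1 library. Cldn3, a sealing claudin and also a receptor of that enterotoxin, had 31.8 to 47.3 normalized CPM in healthy and 20.7 to 50.1 in tumor libraries, with overlap (log2 fold change -0.24, SE 0.28, edgeR adjusted p = 0.603). In the fits of log2 RPKM it was at 0.37 and 0.44, above the median of all genes with a pseudocount of 1 (0.19) and below it with 0.1 (0.58). Cldn7, which lies along the sides of colonocytes as well as at the junction, had 29.7 to 47.7 against 10.8 to 35.3 normalized CPM (log2 fold change -0.75, SE 0.33, edgeR adjusted p = 0.134). Neither Cldn3 nor Cldn7 passed the test, which does not show that their levels were alike. Cldn5, the claudin of endothelial cells, was at 0 counts in all 4 healthy epithelial libraries and at no more than 0.162 RPKM in tumor libraries, and was not tested.

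Of the remaining members, Cldn23, found mainly in surface cells of the colon, had 82.6, 24.9, 34.2 and 49.3 normalized CPM in healthy and 23.7, 18.5, 26.7 and 21.3 in tumor libraries. It passed the adjusted p but not the fold threshold (log2 fold change -1.08, SE 0.34, edgeR adjusted p = 0.0436), and its adjusted p ranged from 0.0211 to 0.869 over 10 other settings. Cldn12, an unusual claudin without the tail motif that binds scaffold proteins, had 14.5 to 24.4 against 15.9 to 26.9 normalized CPM (log2 fold change 0.28, SE 0.26, edgeR adjusted p = 0.50). With Cldn23, 5 members passed the adjusted p, 1 higher and 4 lower, beside 22.6% of all genes tested, 10.6% higher and 12.0% lower. Cldn1, Cldn4 and Cldn15 were the 3 of 9 tested members whose libraries did not overlap between the groups, beside 27.8% of all genes tested.

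**Figure D2:**
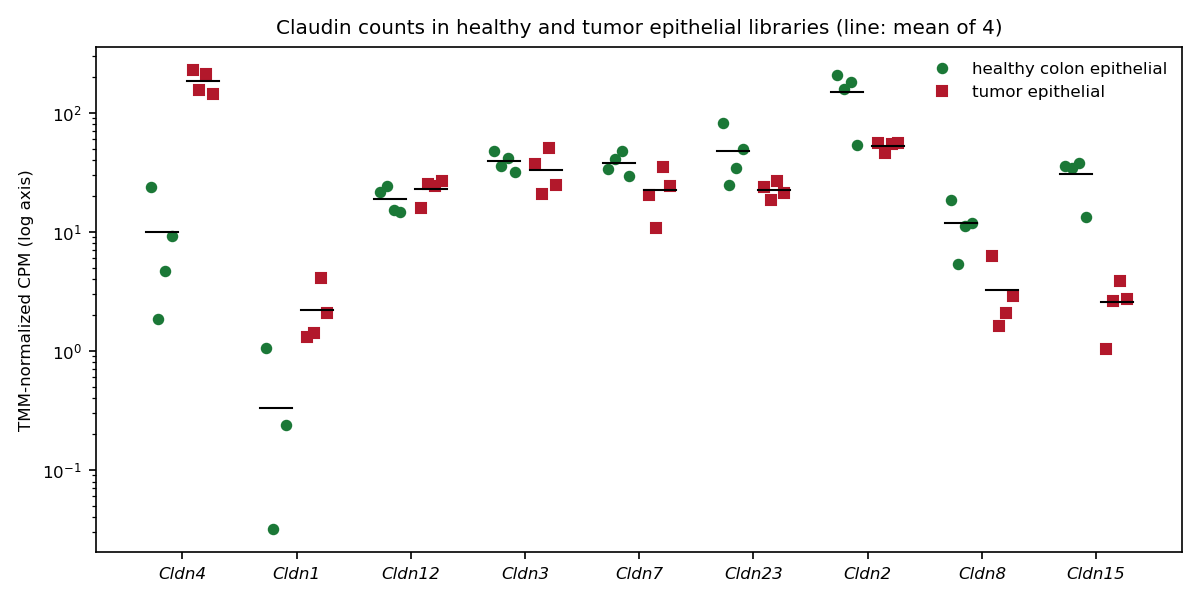
Points give the normalized CPM (log axis) of 9 claudins in each of the 4 healthy (circles) and 4 tumor (squares) epithelial libraries, with the mean as a line; the library with 0 for Cldn1 (healthy replicate 3) cannot be drawn on a log axis. Cldn4 runs from 1.84 to 23.8 in healthy and from 143 to 228 in tumor libraries, and Cldn15 from 13.3 to 37.7 and from 1.03 to 3.87.

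Some marker lists of the kinds of epithelial cell also differed between the epithelial groups, while others overlapped. Of 8 genes of mature colonocytes, 7 had lower RPKM in every tumor epithelial library than in any healthy one. Beside this, 27.8% of all genes tested did not overlap in either direction, counted on normalized CPM. The level of the mature colonocyte list was 0.742% to 3.39% of the healthy epithelial mean in tumor libraries. The goblet cell list, of 6 genes, was at 2.19% to 22.0% of the healthy epithelial mean in tumor and 13.9% to 140% in healthy libraries. Healthy replicate 4, at 13.9%, lay within the tumor range. The mean RPKM was lower in tumor libraries for each of the 6 genes. Only 1 of them was lower in every tumor library than in any healthy one. The crypt base and cycling list was at 49.4% to 166% in tumor and 12.4% to 162% in healthy libraries, and Wnt targets were at 82.8% to 115% of the tumor epithelial mean in tumor and 2.84% to 21.6% in healthy libraries. The general epithelial list was at 43.1% to 115% in tumor and 32.8% to 189% in healthy libraries, and none of its 10 genes was at 0 in either. The part of these cell states in the claudin differences was not tested.

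The promoters of Cldn4, Cldn15 and Cldn2, the called members with a RefSeq promoter entry (Cldn8 has none), are shown with that of Cldn3, since Cldn3 and Cldn4 are neighbors on chromosome 5 that point away from each other, with start sites 39280 bases apart, of which Cldn4 alone passed the test. Each window holds 300 bases, from 250 before to 50 after the start site, on the strand of the gene, from RefSeq (build GRCm38.p6, the assembly also called mm10). Capitals mark the GC box, which reads GGGCGG or, from the other strand, CCGCCC, and the TATA box, which reads TATAAA or, from the other strand, TTTATA, which do not overlap in these windows. The windows are chr5:134946885-134947184 on the minus strand for Cldn4, chr5:134985964-134986263 on the plus strand for Cldn3, chr5:136967619-136967918 on the plus strand for Cldn15 and chrX:139800558-139800857 on the plus strand for Cldn2.
Cldn4: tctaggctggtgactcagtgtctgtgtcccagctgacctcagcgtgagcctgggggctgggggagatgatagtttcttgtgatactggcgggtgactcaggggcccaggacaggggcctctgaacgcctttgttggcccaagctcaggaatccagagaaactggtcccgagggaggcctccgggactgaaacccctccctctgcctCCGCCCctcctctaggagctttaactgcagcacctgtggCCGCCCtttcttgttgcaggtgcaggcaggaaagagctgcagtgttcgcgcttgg
Cldn3: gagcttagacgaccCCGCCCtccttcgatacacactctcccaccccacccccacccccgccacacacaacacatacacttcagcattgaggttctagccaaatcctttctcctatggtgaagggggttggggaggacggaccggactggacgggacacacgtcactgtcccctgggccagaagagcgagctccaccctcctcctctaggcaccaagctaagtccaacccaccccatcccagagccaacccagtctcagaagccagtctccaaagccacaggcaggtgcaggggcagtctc
Cldn15: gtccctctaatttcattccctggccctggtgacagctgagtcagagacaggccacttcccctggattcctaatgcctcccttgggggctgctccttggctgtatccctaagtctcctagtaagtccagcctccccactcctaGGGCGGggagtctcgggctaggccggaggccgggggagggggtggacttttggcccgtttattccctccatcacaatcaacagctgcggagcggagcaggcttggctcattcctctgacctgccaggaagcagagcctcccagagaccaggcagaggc
Cldn2: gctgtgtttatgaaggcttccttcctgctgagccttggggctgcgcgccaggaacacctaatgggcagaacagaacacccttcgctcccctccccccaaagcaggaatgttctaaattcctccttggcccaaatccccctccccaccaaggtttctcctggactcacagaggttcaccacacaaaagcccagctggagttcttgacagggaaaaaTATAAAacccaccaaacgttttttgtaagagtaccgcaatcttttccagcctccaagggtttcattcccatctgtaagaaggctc

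The Cldn4 window held 2 GC boxes and those of Cldn3 and Cldn15 1 each, while Cldn2 held none and was the only one of the 11 member windows, from 8 members, with a TATA box, 35 bases before its start. Of 32851 mouse promoters of the same length, 35.7% held the GC box and 13.6% the TATA box on either strand. The TCF/LEF motif CTTTGAT, or ATCAAAG from the other strand, present in 3.73% of all promoters, and the CDX motif TTTATNG, or CNATAAA from the other strand, present in 10.9%, were in none of the 11 windows, which says only that these letters are not in them. The Cldn4 and Cldn3 windows were alike in base composition, with 61.0% and 60.7% G and C and 9 CpG pairs each.

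The genes lie on chromosome 5 (Cldn4, 134945119 to 134946934, minus strand; Cldn3, 134986214 to 134987472, plus strand; Cldn12, 5489537 to 5514958, minus strand; Cldn15, 136966616 to 136975858, plus strand), chromosome 16 (Cldn1, Cldn5 and Cldn8), chromosome X (Cldn2), chromosome 11 (Cldn7) and chromosome 8 (Cldn23) of mm10. In GENCODE M21, 40 exonic bases of Cldn3 are shared with Wbscr25 on the other strand, and no other member overlaps a gene. No member transcript had a stretch of 50 bases or more at 95% identity with a transcript of another gene.

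Other claudins were scarce. Of the 25 claudin genes that are not members, Cldn6 alone reached a mean of 1 RPKM in any epithelial or stromal group, and the highest mean among the other 24 was 0.296 RPKM. Cldn6, a claudin known mainly from embryonic epithelia, was at 0.00378, 0.0392, 0.0134 and 0.00169 RPKM in healthy and at 2.21, 1.70, 1.69 and 3.58 RPKM in tumor epithelial libraries. The groups lay far apart, with the healthy libraries near 0. Its log2 fold change was 6.95 (SE 0.74, edgeR adjusted p = 0.000127). Cldn6 was picked by a level that it reached in tumor groups alone, so this test is not independent of the choice. No healthy epithelial library held more than 4.28 counts of it, so the size of its change depends on the fit.

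Partners of the claudins at the tight junction were read from a list of 23 genes. Of the 22 tested, 10 passed the adjusted p, 5 higher and 5 lower in tumor epithelial cells, beside 22.6% of all genes tested, and 2 also passed the fold threshold. The median log2 fold change over the 22 was 0.20. Higher were Amotl1, an angiomotin family scaffold (log2 fold change 2.24, SE 0.52, edgeR adjusted p = 0.0111), Cgnl1, paracingulin (1.17, SE 0.36, 0.0384), and Tjp1, the scaffold ZO-1 (1.09, SE 0.16, 0.000968). Lower were Ildr1, a protein of tricellular junctions (log2 fold change -2.52, SE 0.29, edgeR adjusted p = 0.000184), Tjp3, the scaffold ZO-3 (-1.15, SE 0.33, 0.0313), and Cgn, cingulin (-0.84, SE 0.22, 0.0218). Lsr and F11r were the other genes that rose, and Prkci and Magi1 the others that fell. Ocln, occludin, did not pass (log2 fold change 0.30, SE 0.31, edgeR adjusted p = 0.546). The number that passed was 1 in the fit of all 40 libraries, 2 in the fits of log2 RPKM, and 5 to 11 when 1 library was left out.

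**Figure D3:**
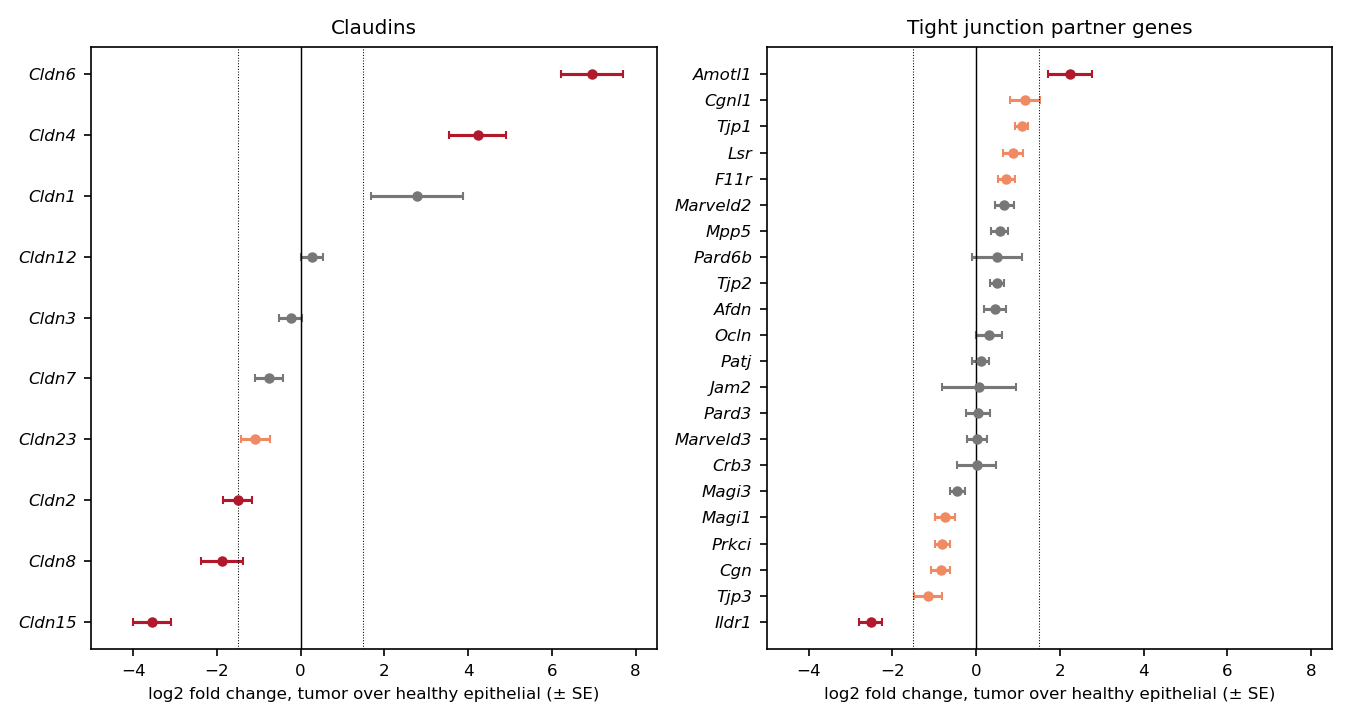
Points give the log2 fold change of tumor over healthy epithelial cells (horizontal axis) with its SE as bars, for claudins on the left and tight junction partners on the right. Dark red marks an adjusted p under 0.05 with a change above 1.5 in size (dotted lines), orange an adjusted p under 0.05 alone and gray neither; Cldn6 (6.95) and Cldn4 (4.23) lie farthest right and Cldn15 (-3.55) farthest left.

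Where each claudin was expressed in health was asked by comparing healthy epithelial with healthy stromal cells, in which 7 of the 10 members were called, 5 higher (Cldn2, Cldn7, Cldn8, Cldn15 and Cldn23) and 2 lower (Cldn1 and Cldn5) in epithelium. Of all 18468 genes tested, 30.9% were called, 11.5% higher and 19.4% lower. Cldn2 had 265, 197, 226 and 66.3 normalized CPM in epithelial and 0.303, 0.0692, 0.360 and 5.15 in stromal libraries (log2 fold change 7.0, SE 1.31, edgeR adjusted p = 0.00252). Cldn7 had 36.6 to 59.2 in epithelial and 0.561 to 3.61 in stromal libraries (4.90, SE 0.59, edgeR adjusted p = 0.000280), and Cldn23 had 30.8 to 105 against 0 to 1.67 (7.13, SE 1.47, edgeR adjusted p = 0.00415). Stromal replicate 4 held the highest value of each of these genes in stroma, and its epithelial marker list was at 7.28% of the epithelial level, against 0.135% to 0.354% in the other 3 stromal libraries.

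Cldn8 had 6.64 to 23.6 normalized CPM in epithelial libraries and at most 3 counts in any stromal library, so it was at least 152-fold higher in epithelium, from a floor of 3 counts per library. Cldn15 was shared more widely, at 45.6, 42.8, 46.8 and 16.5 normalized CPM in epithelial and 9.23, 10.1, 9.09 and 6.23 in stromal libraries (log2 fold change 2.13, SE 0.36, edgeR adjusted p = 0.00162). Epithelial and stromal libraries did not overlap for Cldn15, and the call was lost in both fits of log2 RPKM (0.85 and 0.96, limma adjusted p = 0.172 and 0.291). Cldn3 (log2 fold change 4.84, SE 1.71, edgeR adjusted p = 0.0502) was at 0 in stromal replicates 1, 2 and 3 and at 6.82 normalized CPM in stromal replicate 4, and was called without that replicate (edgeR adjusted p = 1.53e-05). Cldn4 (2.78, SE 1.39, edgeR adjusted p = 0.145) was also called without stromal replicate 4 (5.69, adjusted p = 0.00603). In that fit the number called was 8 instead of 7, beside 6680 of 19942 genes.

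On the stromal side, Cldn5 had 3.05, 1.76, 3.32 and 0.656 normalized CPM in stromal libraries and 0 counts in every epithelial one, so it was at least 9.18-fold higher in stroma. The endothelial list was at 108%, 111%, 151% and 16.5% of its mean in the same 4 stromal libraries, the lowest in the library with the lowest Cldn5. Cldn1 had 2.79, 3.11, 3.08 and 5.57 normalized CPM in stromal and 0 to 1.34 in epithelial libraries, and its call (log2 fold change -3.15, SE 1.11, edgeR adjusted p = 0.0494) was lost in 7 of the 8 fits without 1 library. Cldn12 was at 1.49 ± 0.912 RPKM (SD, n = 4) in epithelial and 1.68 ± 0.187 RPKM in stromal cells and did not pass the test (log2 fold change 0.59, SE 0.26, edgeR adjusted p = 0.0982).

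Between tumor epithelial and tumor stromal cells, edgeR called 0 of the 9 members tested, and at an unadjusted p under 0.05 only Cldn1 passed (log2 fold change -1.29), beside 14.8% of all genes. Of all 16985 genes tested, edgeR called 0.0294%. Limma-voom and DESeq2 also called 0 members, beside 0 of the 16985 genes with limma-voom and 1246 with DESeq2. Cldn4 had 335, 230, 308 and 208 normalized CPM in tumor epithelial libraries and 254, 164, 27.9 and 14.1 in tumor stromal libraries. Tumor stromal replicates 1 and 2, which came from other animals than any tumor epithelial library, were at or near the epithelial range and replicates 3 and 4 far below it. Without replicates 1 and 2, 6 of 10 members tested were called, 5 higher and 1 lower in epithelium, beside 4471 of all 19784 genes tested in that fit, 1309 higher and 3162 lower. Those higher were Cldn2, Cldn3, Cldn7, Cldn23 and Cldn4, with log2 fold changes of 2.88 to 3.82 and edgeR adjusted p-values of 6.53e-05 to 0.00372. The 1 lower was Cldn5, which had too few counts to be tested in the main fit. The tumor stromal group then held 2 libraries, which by their titles came from the animals of tumor epithelial replicates 1 and 2.

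Between tumor and healthy stromal cells, edgeR called 0 of the 9 members tested, beside 8.40% of all 19081 genes, and 4 members had an unadjusted p under 0.05 (Cldn2, Cldn4, Cldn7 and Cldn23), beside 24.8% of all genes. DESeq2 called 4 members, beside 2707 of the 19081 genes, and limma-voom 2, beside 1511. Cldn4 had 341, 218, 33.3 and 17 normalized CPM in tumor and 0.370, 0.680, 0 and 9.80 in healthy stromal libraries (log2 fold change 5.81, SE 1.70, edgeR adjusted p = 0.0656). The groups did not overlap. The epithelial marker list was at 10.9% to 64.8% of the epithelial level in tumor and 0.135% to 7.28% in healthy stromal libraries. What part these epithelial transcripts have in the claudin values of stroma was not tested. Healthy stromal replicate 4 was the nearest to the tumor in Cldn4. Without that replicate 5 members were called, beside 1712 of 19800 genes, and without tumor stromal replicates 1 and 2 edgeR again called 0, beside 1192 of 20786 genes. Cldn5 had 0.0703, 0.0732, 3.28 and 4.45 normalized CPM in tumor stromal libraries, low in replicates 1 and 2, in which the endothelial list was also lowest.

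Whether the tumor change differed between epithelium and stroma was tested as an interaction over the 16 epithelial and stromal libraries. All 10 members were tested, and 5 were called with a more negative change in epithelium, beside 7.25% of all 20901 genes called in that direction and 14.1% in either. These were Cldn8 (-8.87, SE 1.56, edgeR adjusted p = 0.00153), Cldn23 (-6.09, SE 1.55, 0.0152), Cldn2 (-5.93, SE 1.41, 0.0102), Cldn7 (-3.90, SE 1.00, 0.0154) and Cldn15 (-2.72, SE 0.70, 0.0156), as differences of log2 fold changes. Since no healthy stromal library held more than 3 counts of Cldn8, the size of its difference depends on the fit. The number called was 2 without tumor stromal replicates 1 and 2 and 0 in the limma fit of log2(RPKM + 1). Cldn4 did not pass this test (-1.57, SE 1.63, edgeR adjusted p = 0.587), and its sign turned without tumor stromal replicates 1 and 2 (1.03).

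Across the 10 groups, Cldn2, Cldn7, Cldn8, Cldn15 and Cldn23 had their highest mean RPKM in healthy epithelial cells, Cldn3, Cldn4 and Cldn12 in tumor epithelial cells, Cldn5 in healthy stromal cells and Cldn1 in tumor neutrophils. In the order of group means, nearly all neighbors overlapped in the range of their 4 libraries. The exceptions were Cldn1 and Cldn3. In Cldn1, every tumor neutrophil library was above the next group, tumor stromal cells. In Cldn3, every tumor monocyte library was above the next group, blood neutrophils of healthy mice. The Cldn3 gap rested on few reads, with 1.70 counts in tumor monocyte replicate 1 and 2 in healthy blood neutrophil replicate 3. Tumor monocyte libraries also held epithelial transcripts, with the epithelial list at 0.599% to 12.5% of the epithelial level. In blood libraries Cldn2, Cldn3, Cldn4, Cldn8 and Cldn23 stayed under 0.1 RPKM, while Cldn15 ranged from 0.111 to 2.04 RPKM and Cldn12 from 0.0168 to 0.301 RPKM.

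**Figure D4:**
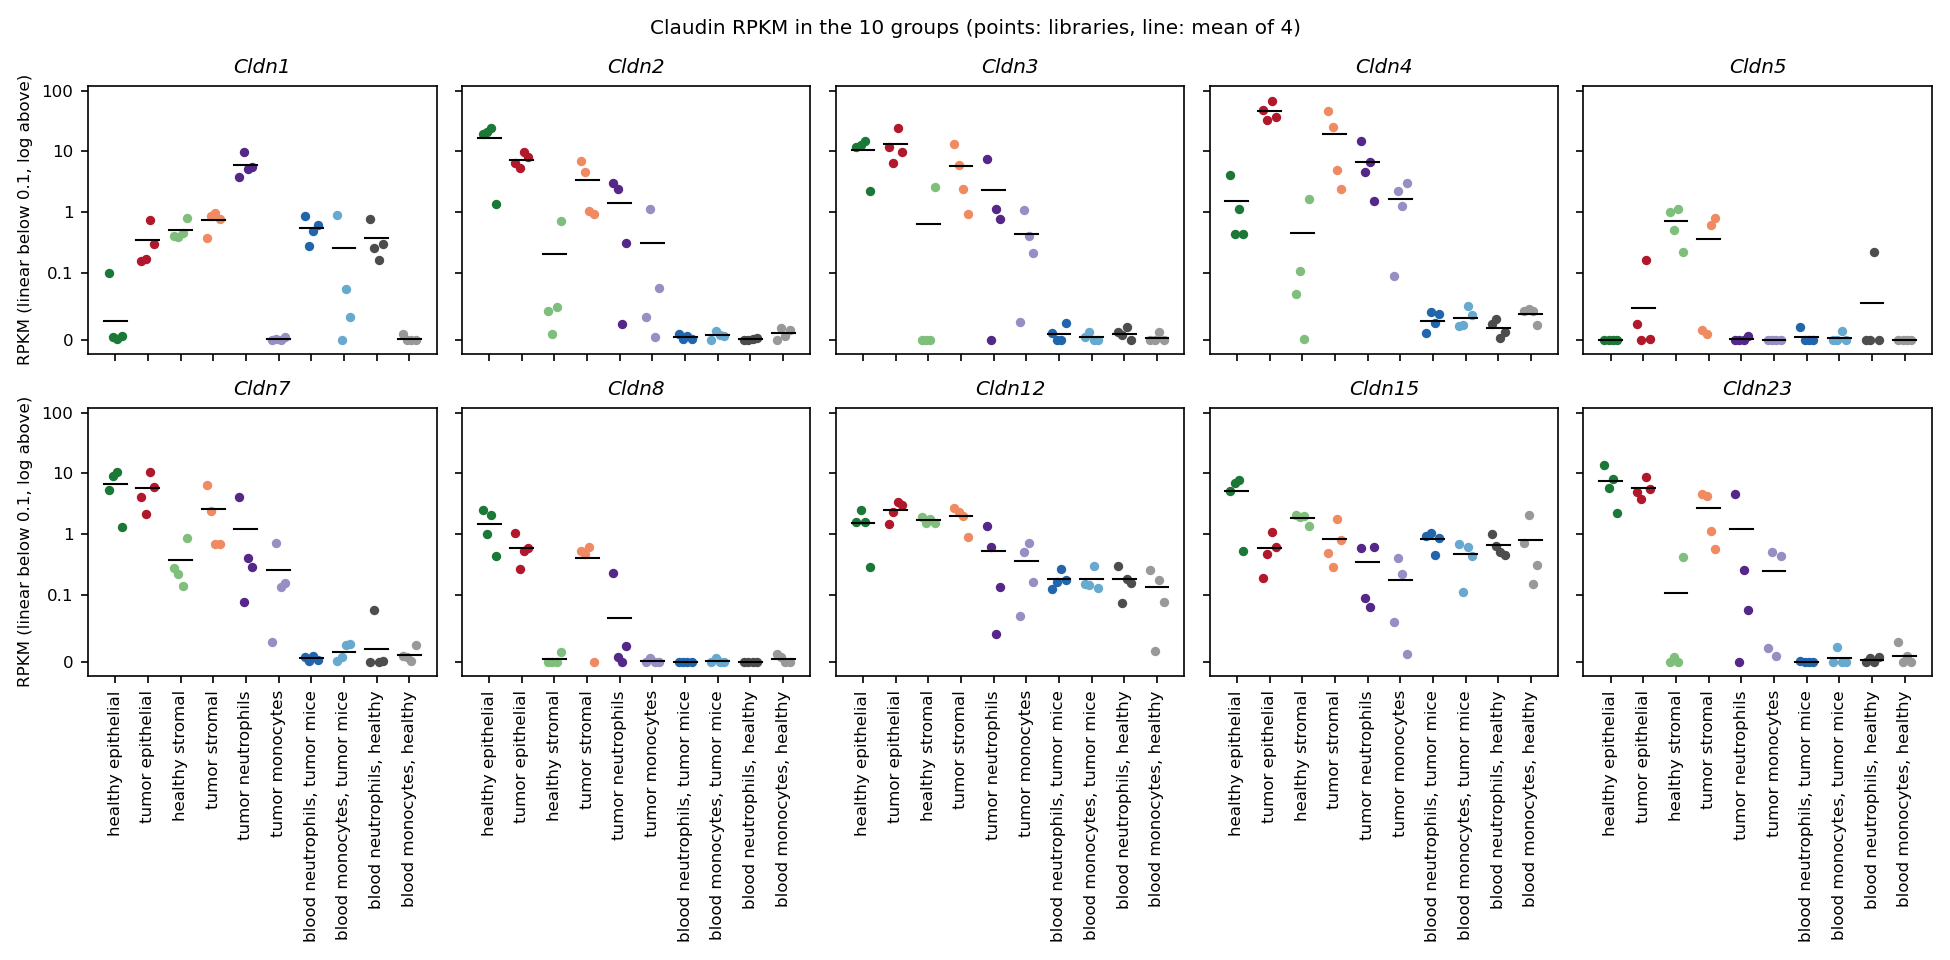
Each panel gives the RPKM of 1 claudin (vertical axis, linear below 0.1 and logarithmic above) in the 4 libraries of each of the 10 groups (points), with the group mean as a line. Cldn4 is highest in tumor epithelial cells (32.9 to 69.0 RPKM), Cldn1 in tumor neutrophils (3.76 to 9.74 RPKM) and Cldn5 in healthy stromal cells (0.216 to 1.11 RPKM).

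Cldn1 in tumor neutrophils was followed up after these levels had been seen. It was at 3.76, 9.74, 5.05 and 5.51 RPKM in tumor neutrophils, at 0.852, 0.273, 0.480 and 0.620 RPKM in blood neutrophils of the same kind of mice, and at 0.157, 0.166, 0.748 and 0.30 RPKM in tumor epithelial cells. Each tumor neutrophil library was above every library of the other groups. Against blood neutrophils of tumor-bearing mice, 4 members had enough counts to be tested and 2 were called, both higher in the tumor, beside 11.9% of all 13674 genes called higher. Cldn1 was 12.6-fold higher (log2 fold change 3.66, SE 0.60, edgeR adjusted p = 0.00244), and the call was kept in 10 other settings and without any 1 library. The levels in these same libraries led to this comparison, so neither the test nor its repeats are independent of the choice. In tumor monocytes, sorted from the same tissue, Cldn1 did not exceed 0.00408 RPKM, less than 1 count per library.

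The other call was Cldn4, at 14.7, 4.54, 6.6 and 1.51 RPKM in tumor neutrophils and 0.0104 to 0.0411 RPKM in blood neutrophils (log2 fold change 7.81, SE 0.87, edgeR adjusted p = 0.000562). Tumor neutrophil libraries also held epithelial transcripts, with the epithelial list at 59.4%, 12.6%, 13.1% and 2.51% of the epithelial level and Epcam at 33.9, 5.91, 8.94 and 2.60 RPKM, against a list level of at most 0.0969% in blood neutrophils. The ratio of Cldn4 to Epcam RPKM was 0.804 to 1.16 in the tumor epithelium and 0.433 to 0.769 in tumor neutrophils. In tumor monocytes it was 0.320 to 1.39, with the highest ratio in replicate 4. In the 4 tumor stromal libraries it was 0.917, 0.795, 0.386 and 0.438, where the 2 higher ratios were those of replicates 1 and 2. For Cldn7 that ratio was 0.0614 to 0.132 in the epithelial and 0.0150 to 0.121 in the neutrophil libraries. Cldn1 differed from both, at 0.00376 to 0.00924 in the epithelial and 0.111 to 2.12 in the neutrophil libraries, without overlap. Neutrophil replicate 1 had the most Epcam and the least Cldn1 of the 4.

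**Figure D5:**
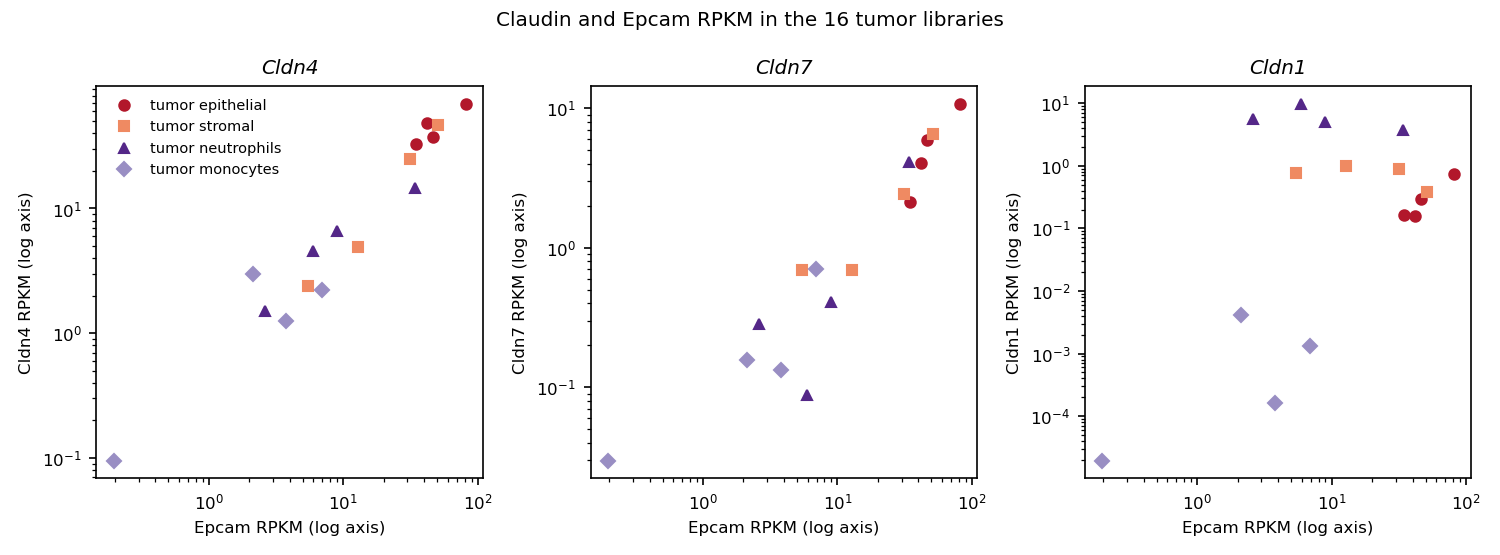
Each point is 1 of the 16 tumor libraries, with Epcam RPKM on the horizontal and claudin RPKM on the vertical axis, both logarithmic. Cldn4 and Cldn7 rise with Epcam across the cell types, whereas Cldn1 is at 3.76 to 9.74 RPKM in the 4 tumor neutrophil libraries, above the tumor epithelial libraries (0.157 to 0.748 RPKM), and under 0.01 RPKM in tumor monocytes.

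The genes whose pattern was most like that of each of the 8 members with a mean of at least 1 RPKM in an epithelial group were found by Pearson's correlation of log2(RPKM + 1) over the 40 libraries among 13958 genes with a mean of at least 1 RPKM in some group. This is a description, since the groups differ widely and the libraries share cell types. For Cldn3 they were Rab25 (r = 0.98), Gm17836 (0.98) and Krt8 (0.98), and for Cldn7 Bspry (0.99), Gm17836 (0.98) and Smpd3 (0.98). Cldn4 was most like Pla2g2a (0.98), Sox21 (0.97) and Fam84a (0.96), and Cldn2 like Hook1 (0.98), Esrp1 (0.97) and Slc35g1 (0.97). For Cldn23 they were Rasef (0.98), Rassf6 (0.97) and Fam83b (0.97), and for Cldn8 Gm609 (0.94), Noxa1 (0.94) and Tmem171 (0.93). Cldn12 was most like Fnbp1l (0.96), Wee1 (0.95) and Cttn (0.95), while Cldn15 had the weakest best match, Nr5a2 (0.88), followed by Akr1c14 (0.87) and Nr3c2 (0.86).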

How the data were processed

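RNA of sorted cells had been amplified (NuGEN Ovation RNA-Seq V2), sequenced and mapped to mm10; the submitters' processing notes name bcl2fastq, Bowtie2 and limma. The authors counted reads per Ensembl gene with HTSstation and deposited expected counts, unnormalized, of which 99.6% of the nonzero values are not whole. The authors also deposited RPKM values, scaled by gene length and library. The annotation release, the treatment of strand and of reads with several matches are not given in the sources used here. Symbols of GENCODE M21 matched 45143 of 45706 genes.

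Here the counts were rounded and tested with edgeR 4.0.16 (robust quasi-likelihood, R 4.3.3) on the 4 libraries of each group compared, after filterByExpr and TMM normalization. P-values were adjusted by Benjamini-Hochberg over all genes tested. Where no library of a group held more than 3 counts of a gene, the fold is a lower bound taken against those 3 counts, which cover counting error only. The tests were repeated with DESeq2 1.42.0 and with limma-voom (limma 3.58.1), on the RLE scaling, unfiltered or with 10 counts required everywhere, in a fit of all 40 libraries, with a block for the replicate number or the animal, on log2 RPKM (limma, pseudocount 1 or 0.1), leaving mitochondrial genes or tumor stromal replicates 1 and 2 aside, without the fold threshold, and without each library in turn. In simulated counts of the tumor against healthy epithelial comparison (15321 genes), edgeR passed 91% of 4-fold and 100% of 8-fold changes and 0.0463% of unchanged genes. Passing there meant an adjusted p under 0.05, without the fold threshold of a call. The changed genes were not drawn from those with few counts, and the spread followed a smooth trend. These rates therefore do not describe genes with few counts, such as Cldn1, or libraries that stand apart, such as healthy epithelial replicate 4.

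The members, gene lists and tests were chosen with earlier results of these data known, and the neutrophil comparison was added after the levels had been seen. All 10 members are named, with the 3 partner genes of the largest change in each direction, other claudins of at least 1 RPKM and the 3 genes most like each of the 8 members that reached 1 RPKM in an epithelial group (not Cldn1 or Cldn5). Marker lists were epithelial, fibroblast, endothelial, leukocyte, mature colonocyte, crypt base and cycling, Wnt target and goblet; the level of a list sets each gene's RPKM against its mean in the marked group, in percent, and takes the median of the genes. No pair of the 36 replicate pairs checked was as alike as counting error allows. The labels give 2 tumor stromal samples the replicate number 3 and none the number 4, so that group was numbered 1 to 4 in the order of the samples, and its replicates 3 and 4 are names only. Labels call the samples of a group replicates, and p-values measure only the spread between these samples, which may in part be technical. Transcripts were compared with blastn 2.17.0.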

Additional observations from a re-analysis of the deposited data

Results flagged for a closer look

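In a group of 4 libraries, a library was singled out when its gap to the nearest other library took more of the range of the group than the 95% critical value of Dixon's test, which chance does in about 1 group of 20. In tumor neutrophils, replicate 1 stood above the other 3 libraries in Cldn3 (7.49 RPKM), Cldn7 (4.09 RPKM) and Cldn23 (4.56 RPKM), and its epithelial marker list was the highest of the 4, at 59.4% of the epithelial level. Replicate 4 of the healthy stromal cells stood below the others in Cldn15 (1.35 RPKM). Replicate 2 of the tumor epithelial cells stood below the others in Cldn2 (45.8 normalized CPM, beside 54.7 to 56.1). Replicate 4 of the healthy epithelial cells stood below the others in Cldn15 (13.3 normalized CPM, beside 34.5 to 37.7), and 83.9% of its counts were mitochondrial. What part these library properties have in the claudin values was not tested.

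The tumor change differed between epithelial and stromal cells in 5 claudins by the interaction test of edgeR, each with a more negative change in epithelium: Cldn2 (difference of log2 fold changes -5.93), Cldn7 (-3.90), Cldn8 (-8.87), Cldn15 (-2.72) and Cldn23 (-6.09). Tumor stromal replicates 1 and 2, which carried the most epithelial transcripts, enter each of these values, and 2 of the 5 differences were called without them.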

How the results depend on the processing

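Calls are counts of claudin members past both thresholds. In tumor against healthy epithelial cells, 4 were called, 2 with all 40 libraries or log2(RPKM + 1), and 2 to 4 without 1 library (2 without tumor replicate 2). Of the tight junction partners, 10 passed, but 1 with all 40 libraries, 2 with either log2 RPKM fit and 5 to 11 without 1 library (5 without tumor replicate 2 or 4, 6 without tumor replicate 1 or 3). Cldn3 was at 0.37 and 0.44 in the log2 RPKM fits (pseudocount 1, then 0.1), beside medians of 0.19 and 0.58 over all genes, so it lay above the median gene in the first fit alone. For tumor epithelial against tumor stromal cells, 0 became 6 without tumor stromal replicates 1 and 2, and Cldn15 turned to 0.081 without tumor stromal replicate 3. For healthy epithelial against healthy stromal cells, 7 became 2 with at least 10 counts in every library, which removes genes scarce in either group, and 4 with log2(RPKM + 1). Cldn12 was at -0.19 and -0.44 in the log2 RPKM fits, above the medians of all genes there (-0.33 and -0.92). For tumor against healthy stromal cells, 0 became 2 with limma-voom, 4 with DESeq2, 1 without a filter, 5 with all 40 libraries, 3 with either log2 RPKM fit and 0 to 5 without 1 library (5 without healthy replicate 4, 1 without tumor replicate 4); Cldn5 turned to 0.31 without tumor stromal replicates 1 and 2. For the difference of the tumor change, 5 became 2 with at least 10 counts, 3 with all 40 libraries or log2(RPKM + 0.1), 0 with log2(RPKM + 1) and 2 without tumor stromal replicates 1 and 2. There the medians of all genes were 0.27 and 0.80 in the log2 RPKM fits and 0.10 without those replicates, beside which Cldn4 was at 1.17, 0.063 and 1.03 and Cldn12 at 0.44, 0.82 and 0.23. For tumor against blood neutrophils, 2 became 6 without a filter, 1 with at least 10 counts, 7 with all 40 libraries and 2 to 5 without 1 library (4 or more without tumor replicate 2 or any blood replicate). The cause was not tested except where stated.

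Replicate numbers, which the labels do not give uniquely in tumor stroma, could not be shown to pair the samples: the correlation of same-numbered deviations was -0.256 to 0.179 over the comparisons, and not every sample correlated best with its own number. By their titles, tumor epithelial replicates 1 and 2 share animals with tumor stromal replicates 3 and 4. Healthy epithelial and healthy stromal replicate 4 share a name, as do tumor neutrophil replicate 4 and blood neutrophil replicate 2 of tumor-bearing mice. The main tests did not use this sharing. With the replicate number as a block, 3 members were called in tumor against healthy epithelial cells, beside 2267 of 16085 genes. Of the partners, 7 passed there. In tumor epithelial against tumor stromal cells 0 members were called, beside 115 of 16985 genes. In healthy epithelial against healthy stromal cells 8 were called, beside 5335 of 18468. In stroma 0 were called, beside 462 of 19081, and in the difference 5, beside 2442 of 20901. In neutrophils 2 were called, beside 1407 of 13674. The animal was used as a block, over the 4 tumor cell types, only for tumor epithelial against tumor stromal cells. In that fit 0 members were called, beside 355 of 19026 genes. Depth limits Cldn1 and Cldn5 in healthy epithelium, where most libraries held few or 0 counts.

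Over all genes, the number called in the 5 comparisons of the report and in neutrophils moved by over 1.5 times in some fits. In the order of the text, edgeR called 2476, 5702, 5, 1602, 2938 and 2229, beside 575, 2119, 6, 555, 1164 and 680 with log2(RPKM + 1), 1246, 2245, 3, 947, 1219 and 1270 with at least 10 counts, 2576, 6473, 1739, 2267, 2582 and 5995 with all 40 libraries, 2827, 6083, 1246, 2707, 3954 and 3214 with DESeq2, and 2085, 6453, 109, 1908, 3335 and 2115 with log2(RPKM + 0.1). In that last fit 991 of the healthy epithelial calls were higher and 5462 lower (edgeR 2127 and 3575), 469 and 1439 in stroma (646 and 956), 2847 and 488 in the difference (1423 and 1515) and 1261 and 854 in neutrophils (1626 and 603). The block gave 115 for the tumor cell types, 462 in stroma and 1407 in neutrophils. Without a filter edgeR called 1625 of 34532 genes in stroma and 2625 of 31530 in neutrophils. With 1 library left out it called 1638 to 3624 genes in neutrophils.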
